A study of Mus musculus with 9 samples.

Results

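The mitochondrial ribosomal protein genes were taken as every locus, in a table of 24138 loci, whose name holds a symbol made of Mrpl or Mrps, a number and at most 1 further letter, and whose mean over 9 libraries was at least 5 FPKM (fragments per kilobase of transcript, scaled to the mapped fragments of the library). All 77 loci with such a name passed that minimum. Of these, 48 encode proteins named for the large subunit of the mitochondrial ribosome (Mrpl genes) and 29 encode proteins named for the small subunit (Mrps genes). The rule used the names and the overall level and no difference between genotypes, but it was chosen with earlier results of these data known.

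RNA was sequenced from whole mouse kidneys at embryonic stage E15.5 to learn which transcripts differ when the stroma lacks netrin 1 (*Ntn1*), a secreted guidance ligand. The kidneys came from 3 crosses, with 3 libraries each of *Foxd1GC/+;Ntn1fl/fl* (MUT, both *Ntn1* alleles floxed and Cre present), *Foxd1GC/+;Ntn1fl/+* (HET, 1 floxed and 1 intact allele with Cre) and *Ntn1fl/fl* (WT, both alleles floxed and no Cre). MUT and HET kidneys share the Foxd1GC allele, a GFP-Cre insertion that drives Cre in Foxd1+ stromal progenitors and removes 1 *Foxd1* allele, whereas WT kidneys keep both *Foxd1* alleles. A whole kidney also holds nephron, ureteric, endothelial and blood cells that descend from other progenitors, so each value below is a sum over cell types, and fewer cells of a type and less RNA per cell cannot be told apart.

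*Ntn1* ranged from 17.8 to 28.9 FPKM in WT, from 12.0 to 16.5 in HET and from 10.8 to 16.5 in MUT libraries, so WT lay above the other genotypes and HET and MUT overlapped. The 8 kidney markers checked were all above 1 FPKM on average, and their sum lay between 285 and 389 FPKM in the 9 libraries. HET-2 stood apart for another tissue: its 8 liver markers summed to 759 FPKM against 28.7 to 53.9 in the other 8 libraries, with albumin (*Alb*) at 244 FPKM, and its red cell markers summed to 3476 FPKM against 1918 to 2293. Neural markers were also highest in HET-2, at a sum of 17.3 FPKM against 7.08 to 11.8 in the other libraries. Macrophage markers summed to 30.1 FPKM there against 18.8 to 27.0. All 8 liver markers and all 7 red cell loci averaged over 1 FPKM, whereas 5 of 6 adrenal cortex markers and all 4 gonad markers averaged under 1. The part of these cells in the results below was not tested beyond leaving HET-2 out.

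Mitochondria keep their own ribosomes, which translate the few proteins encoded by mitochondrial DNA, all of them subunits of the respiratory chain or of ATP synthase. The ribosomal RNAs come from mitochondrial DNA, but every protein of both subunits is encoded in the nucleus, made in the cytosol and imported, so the output of genes scattered over many chromosomes has to meet in 1 particle. Many of these proteins have counterparts in bacterial ribosomes, and the others are particular to mitochondria. In the kidney, mitochondria are best known for powering reabsorption in the proximal tubule, which has only begun to form at the stage sampled.

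The 77 genes lay on 17 chromosomes, with at most 10 on any of them (chromosome 11). Their levels, which FPKM makes comparable between genes because it is per length, spanned 33.0-fold. The median was 43.8 FPKM for large subunit genes (range 9.63 to 203) and 41.5 FPKM for small subunit genes (6.14 to 122). Most genes sat close together, with 59 of 77 between 15 and 90 FPKM, 11 above 90 (9 large, 2 small) and 7 below 15 (6 large, 1 small). When genes were placed in order of mean level, the ranges over 9 libraries overlapped for 74 of 76 neighbours, so the order between neighbours was mostly within the spread of the libraries. From its lowest to its highest library the median member ranged 1.44-fold, and only *Mrps33* and *Mrpl47* ranged over 2-fold. *Mrpl17* in the large and *Mrps2* in the small subunit were the least variable (8.62 to 10.1 and 27.5 to 33.6 FPKM).

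**Figure D1:**
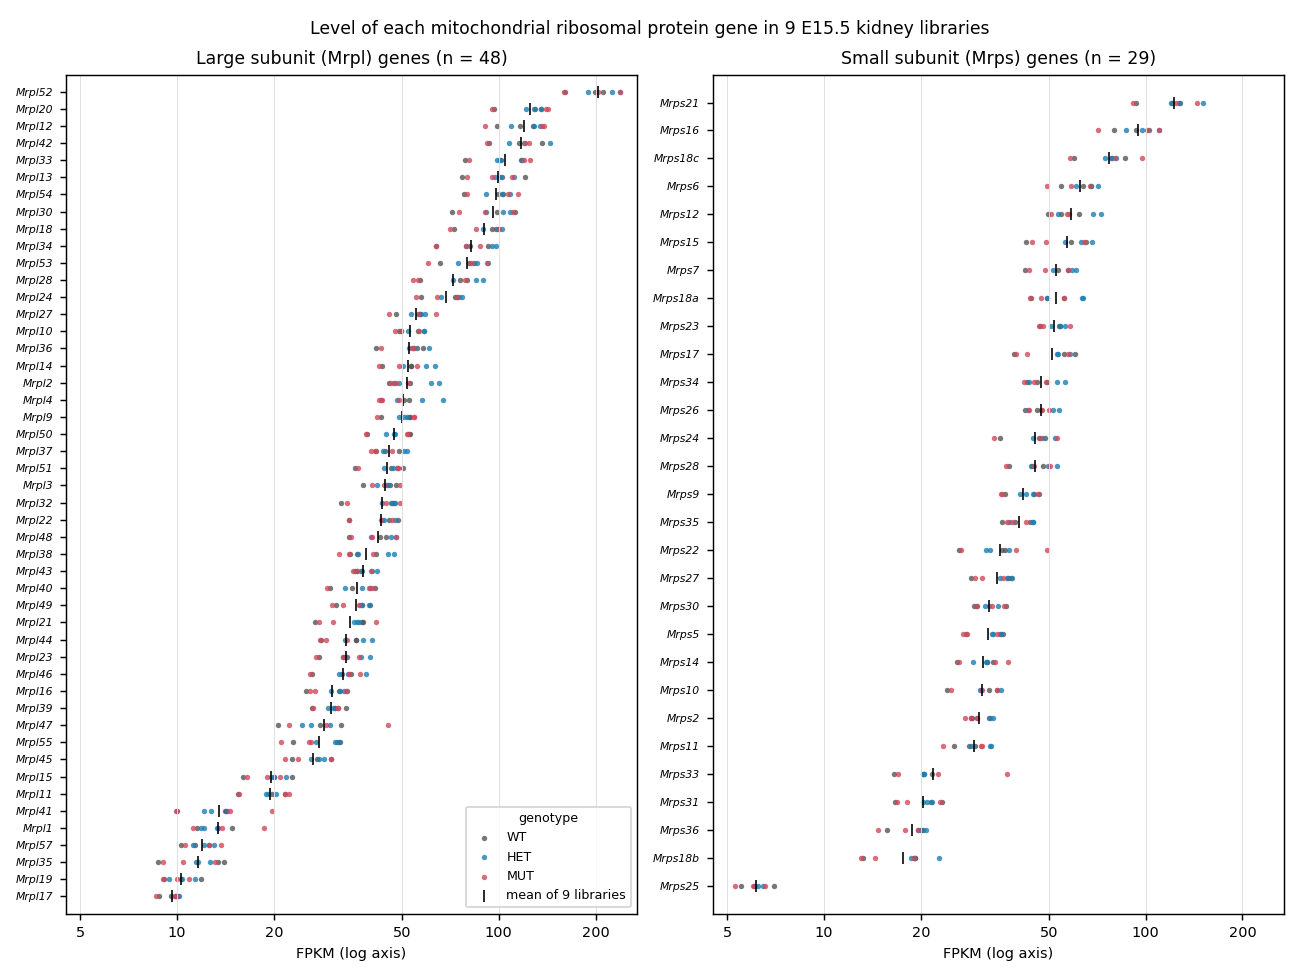
Level in FPKM (log axis) of each of the 48 large and 29 small subunit genes, ordered by mean level. Each point is 1 library, coloured by genotype, and the black tick is the mean of 9 libraries. *Mrpl52* stands at the top at 203 FPKM and *Mrps25* at the bottom at 6.14 FPKM, and in most rows the lowest points are a WT and a MUT library.

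*Mrpl52*, for a large subunit protein without a bacterial counterpart, was the highest of the 77 in every library. It read 161, 212 and 200 FPKM in WT, 238, 225 and 189 in HET and 160, 203 and 239 in MUT libraries. The genotypes overlapped, and the lowest WT and the lowest MUT library were nearly equal. *Mrpl20* (mean 125 FPKM) and *Mrpl12* (120) followed it in the large subunit, and *Mrps21* (122) and *Mrps16* (94.7) led the small subunit. These 4 have bacterial counterparts, and *Mrpl12* forms the stalk that recruits translation factors and also binds the mitochondrial RNA polymerase. At the other end, *Mrps25* averaged 6.14 FPKM and was the lowest of the 77 in every library (5.54, 6.09 and 7.01 in WT, 6.46, 6.25 and 6.04 in HET, 5.30, 6.57 and 5.99 in MUT). It was the member nearest above the 5 FPKM minimum, before *Mrpl17* at 9.63 and *Mrpl19* at 10.3 FPKM, and no locus with a member's name fell below it. The loci of *Mrps25* and *Mrpl19* were 6.38 and 5.21 times as long as the annotated genes in genomic span. That span includes introns and is not the transcript length by which FPKM divides. In all, 7 loci were over 2 times the gene's length, and 3 carried other names too (*Mrps6* with *Slc5a3*, *Mrpl53* with *Ccdc142*, and *Mrps23* with *Cuedc1* and *2210416O15Rik*), so their FPKM may include a neighbour's reads. *Mrpl41* (12.9 times) and *Mrpl49* (2.68 times), which are named again below, were among the 7.

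The members can also be split by number. Proteins numbered up to 36 in the large and up to 21 in the small subunit carry the numbers of bacterial ribosomal proteins, and higher numbers were given mostly to proteins particular to mitochondria. The bacterial numbers had the higher median level in both subunits, 51.3 FPKM (n = 28) against 37.0 (n = 20) for large and 51.8 FPKM (n = 16) against 35.2 (n = 13) for small subunit genes. Single genes ran both ways, since the highest member, *Mrpl52*, has a higher number and 4 of the 7 members under 15 FPKM have bacterial numbers. This split was chosen after the values were seen and was not tested.

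Genes of the functional centres of the ribosome covered much of this range. *Mrps12*, whose protein lines the decoding centre, averaged 58.6 FPKM, and *Mrps7*, of the head of the small subunit, averaged 52.6. In the stalk and its base, *Mrpl12* stood at 120 FPKM, *Mrpl10*, which anchors it, at 53.1, and *Mrpl11* at 19.4. Transcripts of the stalk and its base were thus listed at unequal levels, and the number of copies of each protein per particle was not considered. *Mrpl1*, of the mobile L1 stalk, was lower still at 13.4 FPKM. *Mrpl45*, which ties the exit tunnel to the inner membrane, averaged 26.4 FPKM, and *Mrpl44*, an RNase III-like protein of the large subunit, averaged 33.5. The 3 *Mrps18* genes are paralogs whose proteins take different places, *Mrps18c* that of bacterial S18, *Mrps18b* another site in the small subunit and *Mrps18a* a site in the large subunit. *Mrps18c* was the highest of them at 77.1 FPKM, *Mrps18a* followed at 52.5 and *Mrps18b* stood at 17.6, and their ranges over 9 libraries (58.2 to 97.2, 43.7 to 64.0 and 13.0 to 22.8) left *Mrps18b* apart from the others. *Mrps30*, which is named for the small subunit but sits in the large subunit in structures of the ribosome, averaged 32.7 FPKM.

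The members moved together from library to library. The median Pearson correlation of log2(FPKM + 1) over 9 libraries was 0.79 between large subunit genes (1128 pairs), 0.74 between small subunit genes (406 pairs) and 0.77 between a large and a small subunit gene (1392 pairs). Between members and the other genes above 5 FPKM it was 0.09, and between any of those genes it was 0.00. These correlations share the same 9 libraries and their scaling and serve as a description only.

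This shared movement separated libraries, not genotypes. On the log2 scale, the median member lay 0.26 below its own mean in WT-1 and 0.28 below it in MUT-1, and every one of the 77 genes was below its own mean in each of those libraries. It lay above its mean in WT-2 (0.11), WT-3 (0.06), HET-1 (0.15), HET-2 (0.07) and MUT-3 (0.12), and near it in HET-3 (-0.02) and MUT-2 (-0.03). WT-1 and MUT-1 were the lowest pair of the 9 libraries for 67 of 77 genes, 43 of 48 large and 24 of 29 small, which was true of 22.2% of 9978 genes above 5 FPKM. The single lowest library was MUT-1 for 36 genes, WT-1 for 32 and MUT-2 for 9. The summed FPKM of the 77 genes was lowest in the same libraries, at 3151, 4163 and 3931 in WT, 4358, 4115 and 3729 in HET and 3130, 3915 and 4203 in MUT libraries. The sums averaged 3748 ± 530 in WT, 4067 ± 317 in HET and 3750 ± 556 in MUT (mean ± SD, n = 3), and the genotypes overlapped.

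**Figure D2:**
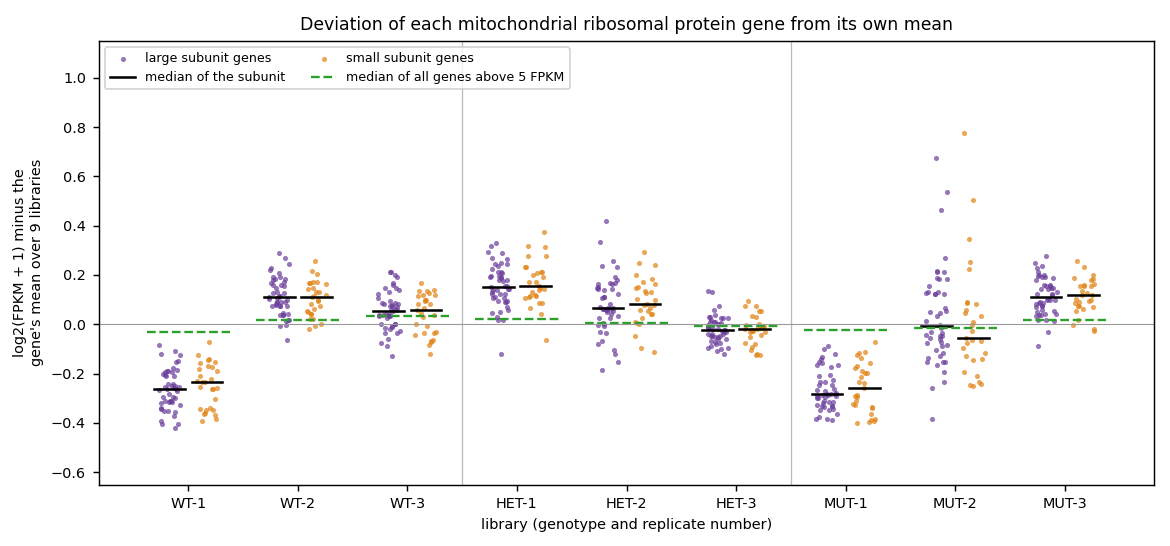
Deviation of each gene from its own mean over 9 libraries, on the log2(FPKM + 1) scale, for large and small subunit genes in each library. Each point is a gene, black bars are the medians of each subunit and green dashed lines the median of all genes above 5 FPKM. All 77 points lie below 0 in WT-1 and in MUT-1, while MUT-2 has the widest scatter.

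Other values moved with these libraries. The FPKM of all loci summed to 453753 in WT-1 and 457192 in MUT-1 against 490206 to 545598 in the other 7 libraries, while the median gene above 5 FPKM deviated by -0.03 and -0.02 there. The members' share of all FPKM was also lowest in these libraries, at 0.694% in WT-1 and 0.685% in MUT-1 against 0.761% to 0.815% elsewhere, so they were low beside the total as well. A stand-in for depth was read from the size of the smallest steps in the values. It was not lowest in WT-1 and MUT-1: relative to WT-1, MUT-1 was at 1.28, and the lowest were WT-2 at 0.574 and MUT-3 at 0.616. Any rescaling of the FPKM between libraries would enter it, and read totals were not given. WT-1 and MUT-1 share the replicate number 1, as does HET-1, in which the median member lay highest, and the labels do not say what a number stands for. The part of these measures in the members' levels was not tested.

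The balance between large and small subunit genes varied within narrow limits over the libraries. The mean FPKM of large subunit genes divided by that of small subunit genes was 1.18, 1.22 and 1.21 in WT, 1.20, 1.20 and 1.20 in HET and 1.19, 1.21 and 1.21 in MUT libraries. The ratio averaged 1.20 ± 0.018 in WT, 1.20 ± 0.0026 in HET and 1.21 ± 0.014 in MUT (mean ± SD, n = 3), and the genotypes overlapped. The ratio of the median levels was closer to 1, at 1.03 ± 0.045 in WT, 1.05 ± 0.027 in HET and 1.03 ± 0.025 in MUT, and ran from 1.00 in WT-1 and MUT-1 to 1.09 in WT-2. Neither ratio was tested between genotypes. The subunits' median deviations also differed little within a library, from -0.03 (large lower, WT-1) to 0.05 (large higher, MUT-2) on the log2 scale.

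Sequences upstream of these genes were looked at because the members moved together across libraries. The RefSeq table of promoters (GRCm38.p6, 250 bases before to 50 after the annotated start) holds 68 of the 77 genes. It was searched on both strands for the cores of 3 motifs bound by regulators of nuclear genes for mitochondria: CCGGAAG, an ETS family core that GABP binds, GCATGCGC, within the palindrome that NRF1 binds, and AAGATGGCG, a YY1 core. The ETS core was in 24 of 68 promoters (35.3%), against 19.9% of 7670 promoters of genes above 5 FPKM and 9.12% of all 27025. The NRF1 core was in 8 (11.8%, against 6.19% and 2.80%), and the YY1 core was in 8 (11.8%, against 3.81% and 1.49%). At least 1 of the 3 was in 34 of 68 promoters (50%), against 27.6% and 12.5%. Subunits differed by core: of 42 large and 26 small subunit promoters, 31.0% and 42.3% held the ETS core. For the NRF1 core it was 16.7% and 3.85%, and for the YY1 core 9.52% and 15.4%. At least 1 of the 3 was in 50% of each subunit. A match shows the letters in the window and nothing of binding.

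The 4 promoters below were chosen to show each core in a gene described here, with matches to a core on either strand in capitals. They are those of *Mrpl52*, the highest member (chr14:54426659-54426958, plus strand), *Mrps11*, whose window runs into the neighbouring *Mrpl46* (chr7:78782881-78783180, plus strand), *Mrps18b*, the member with the smallest p between MUT and HET (chr17:35916391-35916690, minus strand), and *Mrpl32*, which shares its upstream region with a proteasome gene (chr13:14612988-14613287, minus strand).
Mrpl52: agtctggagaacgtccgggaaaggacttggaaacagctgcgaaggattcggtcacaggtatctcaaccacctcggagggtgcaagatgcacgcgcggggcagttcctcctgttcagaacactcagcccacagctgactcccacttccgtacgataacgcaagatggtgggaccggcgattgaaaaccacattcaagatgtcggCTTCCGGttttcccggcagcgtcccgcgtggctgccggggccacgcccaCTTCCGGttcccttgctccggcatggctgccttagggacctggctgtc
Mrps11: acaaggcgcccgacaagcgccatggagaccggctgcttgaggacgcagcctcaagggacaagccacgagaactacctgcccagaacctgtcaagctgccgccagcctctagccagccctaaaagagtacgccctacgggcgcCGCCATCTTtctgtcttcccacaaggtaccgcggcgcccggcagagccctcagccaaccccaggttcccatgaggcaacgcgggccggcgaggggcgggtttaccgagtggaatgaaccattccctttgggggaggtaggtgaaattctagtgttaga
Mrps18b: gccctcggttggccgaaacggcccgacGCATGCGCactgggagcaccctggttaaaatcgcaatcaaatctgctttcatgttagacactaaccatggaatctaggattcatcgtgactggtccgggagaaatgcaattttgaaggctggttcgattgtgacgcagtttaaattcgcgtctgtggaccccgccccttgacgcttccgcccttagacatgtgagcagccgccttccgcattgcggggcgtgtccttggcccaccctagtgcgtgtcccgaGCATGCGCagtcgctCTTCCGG
Mrpl32: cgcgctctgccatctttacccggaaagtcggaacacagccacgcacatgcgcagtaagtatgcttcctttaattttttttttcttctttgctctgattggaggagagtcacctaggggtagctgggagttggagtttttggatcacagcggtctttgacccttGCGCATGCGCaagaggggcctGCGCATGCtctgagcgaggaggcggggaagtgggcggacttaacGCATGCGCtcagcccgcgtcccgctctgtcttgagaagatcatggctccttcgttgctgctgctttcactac
*Mrpl52* holds 2 ETS cores in the reverse orientation, within the last 100 bases of the window. *Mrps11* holds 1 YY1 core, *Mrps18b* holds 1 ETS and 2 NRF1 cores, and *Mrpl32* holds 4 matches to the NRF1 core, 2 of which overlap as the arms of the palindrome. The *Mrps18b* window runs into *Ppp1r10*, which starts 45 bases away on the opposite strand.

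Many members started back to back with another gene. In the GENCODE annotation, 25 of 77 members (32.5%; 17 large, 8 small) had the 5′ end of a protein-coding gene on the opposite strand within 500 bases, with the genes running in opposite directions, against 14.5% of 9610 protein-coding genes above 5 FPKM and 8.89% of all 21924. Members of both subunits met in 1 such pair, *Mrpl46* and *Mrps11*, whose 5′ ends overlap by 412 bases in GENCODE, although their loci in the deposited table do not. *Mrpl46* read 26.3, 34.7 and 32.6 FPKM in WT, 38.5, 34.1 and 31.8 in HET and 26.0, 37.1 and 34.2 in MUT libraries. *Mrps11* read 25.4, 29.5 and 28.2 FPKM in WT, 32.8, 33.2 and 28.6 in HET and 23.5, 30.8 and 31.0 in MUT libraries, with its lowest values in the same WT and MUT libraries as *Mrpl46*. Their levels were alike (32.8 and 29.2 FPKM on average), with a correlation over the 9 libraries of 0.92. The median between any large and any small subunit gene was already 0.77.

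The other partners varied in how far they moved with their member. Over the 18 other pairs in which both genes passed 5 FPKM, the correlation over 9 libraries ran from -0.55 to 0.96 with a median of 0.36, against 0.09 between members and all other genes. It was above 0.5 in 8 pairs and below 0 in 6. It was high for *Mrps27* with *Ptcd2*, a gene for a mitochondrial RNA-binding protein (0.96, 81 bases apart), for *Mrpl32* with *Psma2*, of the proteasome (0.89, 75 bases), for *Mrpl36* with *Ndufs6*, of respiratory complex I (0.87), and for *Mrpl49* with *Fau*, which encodes a cytosolic ribosomal protein (0.83, 59 bases). *Mrpl30* with Mitd1 gave 0.77 and *Mrpl2* with Klc4 gave 0.67. *Mrps12* and *Sars2*, the mitochondrial seryl-tRNA synthetase, gave 0.59. It was lowest for *Mrpl40* with *Hira*, a histone chaperone (-0.55), and for *Mrpl57* with *Ska3*, of the kinetochore (-0.51). These values describe 9 libraries each and carry no test. Respiratory chain genes (median deviations -0.26 in WT-1 and -0.34 in MUT-1) and cytosolic ribosomal protein genes (-0.34 and -0.31) were low in the same libraries as the members. For *Ndufs6* and *Fau*, the 0.09 over all other genes is therefore no fitting baseline. The part of the shared start region was not tested.

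Comparing MUT with HET asks what the loss of the remaining *Ntn1* allele changes when Cre and the *Foxd1* insertion are present in both. No member differed past an adjusted p of 0.05 (limma on log2(FPKM + 1), Benjamini-Hochberg adjusted over 10081 genes, used for each comparison here), and 0% of all genes tested did. Before adjustment, p was under 0.05 for 5 of 77 members (6.49%), all lower in MUT, against 636 genes or 6.31% of all tested, so the share among members was near the background. Of the members, 65 were lower and 12 higher in MUT, with a median log2 fold change of -0.13 for large (40 of 48 lower) and -0.15 for small subunit genes (25 of 29 lower). Over all genes tested, 54.1% were lower and the median was -0.02. The 3 MUT values lay wholly below the 3 HET values for 4 members (5.19%, against 4.5% of all genes) and wholly above them for none (0 members, against 5.19% of all genes).

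The lower level in MUT than in HET rested on MUT-1. Without it, 31 of 77 members were higher in MUT and the medians were -0.01 for large and -0.04 for small subunit genes. Without HET-2, the library with liver transcripts, they stayed at -0.12 and -0.14. Leaving out HET-1 gave -0.08 and -0.09 and leaving out MUT-3 gave -0.21 and -0.25. The number of members with an unadjusted p under 0.05 moved between 0 without HET-1 and 24 without MUT-3, as did that of all genes, from 278 of 10098 to 1837 of 10159. An adjustment of each library for the GC content and length of the transcripts also narrowed them, to -0.03 and -0.08 with 30 members higher.

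*Mrps18b* had the smallest p of the members that were lower in MUT than in HET. It read 22.8, 19.1 and 18.6 FPKM in HET and 13.0, 14.4 and 19.0 in MUT libraries, with 13.2, 19.2 and 19.1 in WT. The highest MUT library was within the HET values, and the log2 fold change was -0.37 ± 0.14 (SE, n = 3 per genotype, limma adjusted p = 0.74). *Mrpl4*, whose protein reaches into the exit tunnel, was next with 57.9, 67.1 and 48.4 FPKM in HET, 43.3, 42.4 and 49.0 in MUT and 43.2, 52.6 and 50.9 in WT libraries. Its log2 fold change was -0.35 ± 0.14 (SE, n = 3 per genotype, limma adjusted p = 0.74), and its MUT values overlapped those of WT. The other members with an unadjusted p under 0.05 were *Mrpl28* (log2 fold change -0.39), *Mrpl44* (-0.29) and *Mrpl55* (-0.30).

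*Mrpl55*, for a large subunit protein without a bacterial counterpart, was also 1 of the 4 members whose MUT and HET values did not overlap. It read 31.9, 30.9 and 27.1 FPKM in HET and 21.04, 26.0 and 25.7 in MUT libraries. WT libraries read 22.9, 32.0 and 31.4 and thus spanned both groups. The others were *Mrpl49* (HET 39.4, 37.2 and 37.7 FPKM, MUT 30.2, 32.8 and 36.8), *Mrps2* (HET 32.8, 33.6 and 29.8, MUT 28.6, 27.5 and 29.8) and *Mrps36* (HET 20.7, 20.02 and 19.6, MUT 14.7, 17.9 and 19.6). The gap between the groups was narrow in *Mrps2* and *Mrps36*, whose highest MUT library nearly met the lowest HET library. *Mrps36*, although named for the small subunit, encodes a protein now known from the alpha-ketoglutarate dehydrogenase complex.

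Comparing MUT with WT joins the loss of *Ntn1* with the presence of Cre and the loss of a *Foxd1* allele. No member passed an adjusted p of 0.05 (limma, 0% of 10096 genes tested) and no member had an unadjusted p under 0.05, against 65 genes or 0.644% of all tested. The lowest adjusted p of a member was 1.00 by limma. The members were split, with 34 higher and 43 lower and medians of -0.01 for large and -0.02 for small subunit genes, beside -0.00 over all genes. Values did not separate for any member in either direction, against 1.32% of all genes higher and 1.34% lower. Of the 77, 68 differed by at most 10% in either direction. The smallest p belonged to *Mrps33* and *Mrps22* among members higher in MUT (log2 fold changes 0.31 and 0.20) and to *Mrpl55* and *Mrps5* among those lower (-0.23 ± 0.16 and -0.14 ± 0.15, SE, n = 3 per genotype). *Mrps5*, whose bacterial counterpart guards decoding accuracy, read 27.6, 36.1 and 35.3 FPKM in WT and 27.9, 27.0 and 34.4 in MUT libraries, so the groups overlapped.

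The near-zero medians set MUT-1 against WT-1, the lowest library of each genotype. Without WT-1 only 8 members were higher in MUT (medians -0.12 for large and -0.10 for small), and without MUT-1 there were 62 (0.08 and 0.04). With both left out, 32 of 77 were higher and the medians were -0.02 and -0.04. Leaving out WT-2, WT-3 or MUT-3 also moved the number of members higher in MUT, to 56, 48 and 12, and leaving out MUT-2 moved it to 20. An unadjusted p under 0.05 was reached by 3 of 77 members without MUT-1, against 143 of 10105 genes, and by 1 without WT-1, against 377 of 10114.

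Comparing HET with WT asks what Cre, the *Foxd1* insertion and the loss of 1 *Ntn1* allele bring together, and it shares its libraries with the comparisons above. No member passed an adjusted p of 0.05 (limma, 0% of 10105 genes tested, lowest member adjusted p = 0.998) and none had an unadjusted p under 0.05, against 108 genes or 1.07% of all tested. In sign, 74 of 77 members were higher in HET, 45 of 48 large and 29 of 29 small, with a median log2 fold change of 0.10 for each subunit, against 52.4% of all genes higher and a median of 0.01. For no member did HET and WT values separate, against 2.15% of all genes higher and 1.06% lower. The difference rested on WT-1, since without that library 33 of 77 members were higher and the medians were -0.03 for large and -0.00 for small subunit genes. Leaving out HET-1 lowered the medians to 0.06 and 0.07, leaving out WT-2 raised them to 0.18 and 0.17, and without HET-3 5 of 77 members had an unadjusted p under 0.05, beside 625 of 10131 genes, a like share. The adjustment for GC content and length lowered the number higher to 54 and the medians to 0.04 and 0.05.

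*Mrpl2*, of the part of the large subunit next to the peptidyl transferase centre, had the smallest p of the members higher in HET than in WT. It read 45.5, 53.0 and 47.2 FPKM in WT and 61.4, 65.4 and 49.1 in HET libraries, with 46.3, 48.0 and 52.3 in MUT. A HET library lay below the highest WT library, and the log2 fold change was 0.26 ± 0.14 (SE, n = 3 per genotype, limma adjusted p = 0.998). *Mrpl23* followed at 0.22 ± 0.12, and the 3 members lower in HET, *Mrpl1* (-0.08), *Mrpl50* (-0.04) and *Mrpl19* (-0.00), differed by less than their standard errors.

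**Figure D3:**
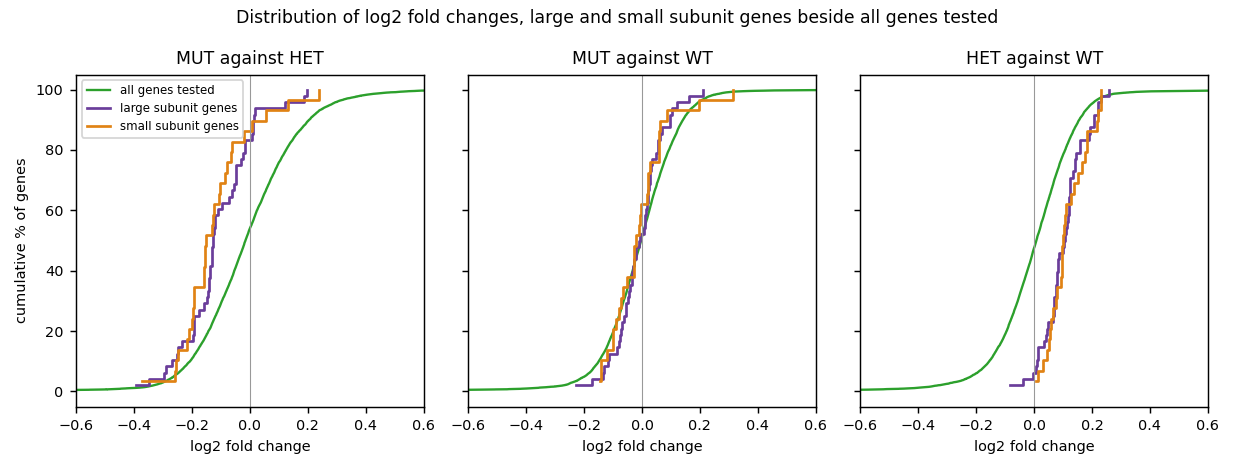
Cumulative percent of genes by log2 fold change on the log2(FPKM + 1) scale, for large subunit genes, small subunit genes and all genes tested, in each of the 3 comparisons; the outermost genes lie beyond the axis. Both subunits lie left of all genes in MUT against HET (medians -0.13 and -0.15), on them in MUT against WT (-0.01 and -0.02) and right of them in HET against WT (0.10 each), and the subunits follow each other in every panel.

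MUT-2 differed from the other libraries in another way, by the scatter of the members around the library's median. The standard deviation of the members' deviations was 0.21 in MUT-2 against 0.06 to 0.11 in the other 8 libraries (log2 scale). There, 6 members stood more than 0.35 above the median member and 1, *Mrpl28*, stood more than 0.35 below it, whereas none of the 616 values in the other libraries lay that far out. The margin was chosen after the values were seen. Among all genes above 5 FPKM, 5.69% lay more than 0.35 above the library's median in MUT-2, near the 7.79% of members, and 0.471% to 5.56% did so in the other libraries.

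The members that stood out upwards were 3 of each subunit. *Mrps33*, for a small subunit protein particular to mitochondria, was listed at 37.1 FPKM in MUT-2 and at 16.5 to 22.6 in the other 8 libraries, and stood 0.80 above the median member there. *Mrpl47*, the counterpart of bacterial L29 at the exit of the tunnel, was listed at 45.3 FPKM against 20.6 to 32.4 (0.70 above). *Mrps22*, for another small subunit protein particular to mitochondria, read 49.4 FPKM against 26.3 to 39.5 (0.53 above). The others were *Mrpl41* (0.57 above), *Mrpl1* (0.49) and *Mrps18c* (0.38), and in none of the 6 was another MUT library more than 0.35 above the median member. By limma, *Mrps33* in MUT against WT had a log2 fold change of 0.31 ± 0.24 and in MUT against HET of 0.24 ± 0.21 (SE, n = 3 per genotype), so 1 library carried a difference about the size of its error.

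**Figure D4:**
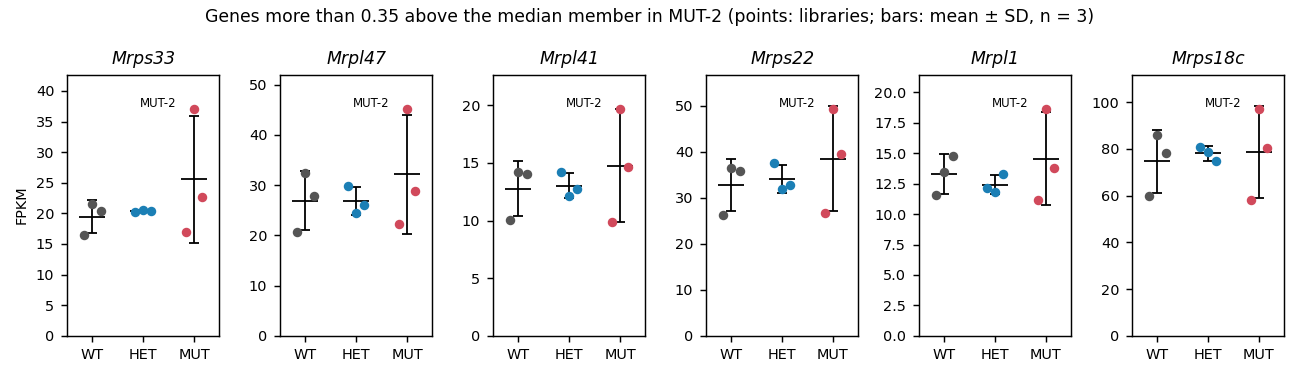
FPKM of the 6 members that lay more than 0.35 (log2) above the median member in MUT-2, by genotype. Each point is a library and bars show mean ± SD (n = 3); MUT-2 is the top point of each panel, at 37.1 FPKM for *Mrps33* and 97.2 FPKM for *Mrps18c*, and the other MUT points lie among or near those of WT and HET.

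Genes whose products work with the mitochondrial ribosome followed its proteins in part, as did lists outside it. Between MUT and HET, 64 of 81 cytosolic ribosomal protein genes (median log2 fold change -0.14) were lower in MUT. So were 66 of 78 nuclear genes of the respiratory chain (-0.10). Of 6 further mitochondrial ribosomal proteins with other names, 5 were lower in MUT than in HET (median log2 fold change -0.09). *Ict1*, a peptidyl-tRNA hydrolase built into the large subunit and also known as *Mrpl58*, read 62.7, 58.8 and 51.4 FPKM in HET and 41.4, 45.0 and 63.2 in MUT libraries. *Dap3*, a GTP-binding protein of the small subunit, read 21.5, 19.9 and 18.9 FPKM in HET and 17.3, 17.8 and 21.5 in MUT libraries. For both, the MUT values enclosed those of HET, and limma gave adjusted p of 0.76 for *Ict1* and 0.85 for *Dap3*.

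Of the genes listed as factors that assemble the ribosome or modify its RNA, 22 of 25 tested were lower in MUT than in HET (median -0.06). That list counts *Ddx18* (-0.19), a helicase gene of cytosolic ribosome assembly. Of the translation factors, 11 of 13 were lower (-0.09). None in either list passed an adjusted p of 0.05 by limma. An unadjusted p under 0.05 was reached by 1 gene in each list (4% and 7.69%, against 6.31% of all genes). Those were *Mettl17*, an assembly factor (-0.34 ± 0.14, SE), and *Tufm*, the elongation factor that delivers charged tRNAs (-0.34 ± 0.14). *Mettl17* read 14.5, 13.9 and 11.4 FPKM in HET and 9.65, 8.91 and 12.3 in MUT libraries. Mitochondrial aminoacyl-tRNA synthetases were more evenly split, with 10 of 16 lower (-0.07), and *Kars*, which charges lysine tRNAs in cytosol and mitochondria (-0.34), and *Tars2*, for threonine (-0.26), had an unadjusted p under 0.05 (12.5% of the 16, against 6.31% of all genes). *Tars2* was among 4 of these 16 whose MUT values lay below all HET values (25%, against 4.5% of all genes), with 19.4, 17.6 and 16.9 FPKM in HET and 14.99, 13.1 and 16.8 in MUT libraries. *Rbfa*, which matures the small subunit RNA, and *Oxa1l*, which inserts new proteins into the inner membrane, had log2 fold changes of -0.29 and -0.15.

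Regulators of nuclear genes for mitochondria did not share the pattern. Of 12 tested between MUT and HET, 7 were lower and the median was -0.01, with the smallest p for *Yy1*, a zinc finger factor (0.23 ± 0.13, SE, limma adjusted p = 0.74), and *Pprc1*, a coactivator of the PGC-1 family (0.16 ± 0.11, limma adjusted p = 0.75). Their median deviation was above 0 in WT-1 (0.11) and MUT-1 (0.07), where the ribosomal proteins were lowest. *Yy1* read 52.1, 37.2 and 39.0 FPKM in WT, 41.9, 37.0 and 42.6 in HET and 54.6, 49.4 and 39.8 in MUT libraries.

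The low level in WT-1 and MUT-1 was not particular to mitochondrial ribosomes. Cytosolic ribosomal protein genes had median deviations of -0.34 in WT-1 and -0.31 in MUT-1, and nuclear genes of the respiratory chain -0.26 and -0.34. Assembly factors (-0.16 and -0.18) and aminoacyl-tRNA synthetases (-0.08 and -0.06) lay lower there as well, by less. Between HET and WT, all 81 cytosolic ribosomal protein genes tested and 72 of 78 respiratory chain genes were higher in HET, as were the 74 mitochondrial ribosomal protein genes.

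**Figure D5:**
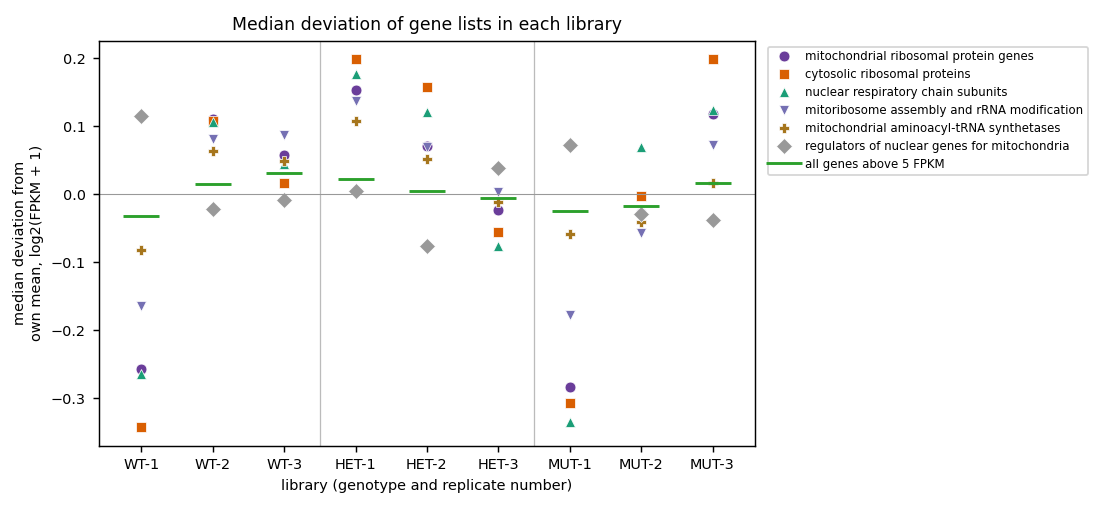
Median deviation from each gene's own mean over 9 libraries (log2(FPKM + 1) scale) for the mitochondrial ribosomal protein genes and 5 other lists, with the median of all genes above 5 FPKM in green. In WT-1 and MUT-1 the mitochondrial ribosomal proteins (-0.26 and -0.28), cytosolic ribosomal proteins and respiratory chain subunits lie lowest, and the regulators lie above 0.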

How the data were processed

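The authors extracted RNA from whole E15.5 kidneys with TRIzol, made stranded mRNA libraries and aligned, assembled and quantified the reads; the submitters' processing notes name STAR, Cufflinks, Cuffdiff and the build mm10, with versions not given in the sources used here. The deposited values are FPKM per locus and library. The authors' mean columns were not used, and 0 other per-sample columns were present.

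Each comparison kept the genes that averaged 5 FPKM or more in 1 of its genotypes and fitted log2(FPKM + 1) by limma 3.58.1 (lmFit, eBayes with a trend) under R 4.3.3, two-sided, with Benjamini-Hochberg adjustment and a threshold of 0.05, using the 6 libraries of the genotypes compared and no block. The added 1 makes fold changes of low genes appear smaller than they are. The kidneys came from 3 crosses, the labels do not say which library came from which, and p-values measure the spread between these libraries only. Read totals were not given, and counting error was therefore left out. Lists were described by counts and medians, without a test. GC content, length, gene starts and neighbours came from GENCODE mouse release 21, and promoters from RefSeq (GRCm38.p6). No transcript encoded by mitochondrial DNA was analysed here. The fit was tested on simulated data.

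The members and lists were chosen with earlier results of these data known. Genes named were those with defined roles, the 2 smallest p in each direction per comparison, the highest, lowest, most and least variable members of each subunit, those nearest the minimum, and the 2 smallest p of each further list; others were named after their values were seen. Alternatives were the pseudocount, the minimum, scaling, GC and length adjustment, a joint fit, the replicate block and leaving out each library.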

Additional observations from a re-analysis of the deposited data

How the results depend on the processing

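No mitochondrial ribosomal protein gene passed an adjusted p of 0.05 by limma in any comparison under any setting tried (lowest 0.18, MUT against HET without MUT-3, where 24 of 77 members and 1837 of 10159 genes had an unadjusted p under 0.05; without HET-3 it was 10 members and 1126 of 10096 genes). The replicate numbers were not taken as pairs, since not every same-numbered pair deviated together: correlations of deviations ran from -0.31 to 0.05 in MUT against HET, -0.26 to 0.55 in MUT against WT and -0.20 to 0.17 in HET against WT, the highest being MUT-1 with WT-1, which share number 1 (0.56 over the members), and 1, 2 and 2 of 6 libraries correlated best with their own number. With the replicate block, 0 genes were called in each comparison, 3, 1 and 0 members had an unadjusted p under 0.05 beside 494, 201 and 233 of all genes, and the medians were unchanged (-0.13 and -0.15, -0.01 and -0.02, 0.10 and 0.10 for large and small subunit genes). Leaving out 1 library gave 0 to 3 called genes in each comparison. Medians over these leave-outs ran from -0.21 to -0.01 (large) and -0.25 to -0.04 (small) in MUT against HET, from -0.12 to 0.08 and -0.10 to 0.06 in MUT against WT, and from -0.03 to 0.18 and -0.00 to 0.17 in HET against WT. The ratio of large to small subunit genes in HET was 1.20 after quantile normalization, 1.18 with members above 10 FPKM and 1.19 with *Mrps18a* and *Mrps30* counted as large, and in MUT it was 1.19 with members above 10 FPKM. Leaving out WT-1 and MUT-1 together was chosen after seeing the data. With read totals unknown, the limit that depth sets was not assessed.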
